A study of Mus musculus with 7 samples.

Results

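The 8 mouse Gimap genes Gimap1, Gimap3, Gimap4, Gimap5, Gimap6, Gimap7, Gimap8 and Gimap9 were followed in the RNA of splenic CD4+CD25+ cells from aged and young mice. They were taken by gene symbol and are 8 of the 25469 genes with at least 1 read in any library. All 8 passed the filter on low counts, which left 13904 genes for testing. The study asked how the regulatory T cells (Tregs) of aged mice differ from those of young mice. Its RNA libraries fall into an aged group of 3 (18-month old) and a young group of 4 (8-week old), with ages as the labels give them; the study's methods give another age for young mice. All mice were wild type (WT), and the study's methods describe male C57BL/6 animals. No treatment, transgene or deletion is named for any of the 7 libraries. The cells were taken from spleen with magnetic beads and not by a fluorescence sort, so other spleen cells can remain. The labels call the libraries biological replicates, and whether a library comes from 1 mouse or from a pool is not given in the sources used here.

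GIMAP proteins (GTPases of the immunity-associated protein family) are small GTP-binding proteins that sit mostly on membranes inside the cell and are abundant in lymphocytes. Their genes lie side by side in a cluster, and loss of some of them, Gimap5 first among them, leads to a lack of T cells in rodents. Several members have been found in contact with BCL-2 family proteins, the regulators of mitochondrial cell death, which is why the family is known for lymphocyte survival. In the GENCODE M21 annotation of GRCm38 the 8 genes span chr6:48647234-48770851, a stretch of 123618 bases. Gimap8 opens the cluster at chr6:48647234-48660875, followed by Gimap9 at chr6:48676129-48679114 and Gimap4 at chr6:48684549-48692060. Gimap6 lies at chr6:48701582-48708225, Gimap7 at chr6:48718621-48724636 and Gimap1 at chr6:48739054-48743795. Gimap5 at chr6:48746197-48754210 and Gimap3 at chr6:48764464-48770851 close it. Gimap3 and Gimap6 are read from the minus strand and the other 6 genes from the plus strand.

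The promoters of 3 members are shown because these genes mark the range of the family's changes described below: Gimap7 was the member called higher in aged cells, Gimap3 was the most abundant member, and Gimap9 stayed near 0 change. Each runs 5′ to 3′ on the gene's own strand from 250 bases before the start site to 50 bases after it, as RefSeq gives it for GRCm38.p6. Gimap7 lies at chr6:48718371-48718670 (plus strand), Gimap3 at chr6:48770802-48771101 (minus strand) and Gimap9 at chr6:48675885-48676184 (plus strand). Capitals mark matches, on either strand, to the short motifs described after the sequences.
Gimap7: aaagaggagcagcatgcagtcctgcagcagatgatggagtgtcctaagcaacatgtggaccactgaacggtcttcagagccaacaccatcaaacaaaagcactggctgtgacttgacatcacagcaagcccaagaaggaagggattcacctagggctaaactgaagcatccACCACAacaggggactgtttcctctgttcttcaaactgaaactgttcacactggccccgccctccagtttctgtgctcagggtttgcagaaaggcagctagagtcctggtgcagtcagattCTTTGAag
Gimap3: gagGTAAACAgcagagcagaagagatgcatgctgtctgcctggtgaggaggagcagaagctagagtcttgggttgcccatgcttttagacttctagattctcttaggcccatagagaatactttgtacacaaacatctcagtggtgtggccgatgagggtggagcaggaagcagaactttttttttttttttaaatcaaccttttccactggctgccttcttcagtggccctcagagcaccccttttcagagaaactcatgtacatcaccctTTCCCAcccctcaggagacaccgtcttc
Gimap9: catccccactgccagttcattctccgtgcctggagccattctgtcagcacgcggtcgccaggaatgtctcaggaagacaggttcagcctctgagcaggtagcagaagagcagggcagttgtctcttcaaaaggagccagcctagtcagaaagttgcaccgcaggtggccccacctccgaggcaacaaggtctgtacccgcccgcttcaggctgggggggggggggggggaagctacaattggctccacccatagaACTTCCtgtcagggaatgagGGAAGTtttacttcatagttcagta

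Short cores of factors that act in lymphocytes were searched on both strands in the 9 RefSeq promoters of the 8 genes (Gimap8 has 2) and in all 32851 RefSeq mouse promoters of the same length. The Runx core TGTGGT was found in the promoters of Gimap1, Gimap4 and Gimap7 and in 16.8% of all promoters. The TCF and LEF core CTTTGA was found in those of Gimap4 and Gimap7 and in 16.0% of all. The Ets core GGAAGT was found in those of Gimap1, Gimap5, Gimap6 and Gimap9 and in 23.8% of all. The forkhead core GTAAACA, read by FOXO and FOXP proteins, was found in that of Gimap3 and in 3.65% of all, and the RBPJ core TGGGAA, the Notch signal's DNA-binding site, in that of Gimap3 and in 25.6% of all. The TATA letters TATAAA were found in that of Gimap6 and in 13.6% of all. The RBPJ and Ets cores share the letters GGAA and can overlap. Gimap7 holds its Runx letters 79 bases before the start site and its TCF and LEF letters 42 bases after it, whereas Gimap9 holds 2 Ets cores 5 and 25 bases after its start site. A match describes letters in this window and not a bound site.

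Gene counts per library ran from 10734234 to 13649310, and 3 counts, taken as the limit of detection, were 0.21 to 0.302 CPM (counts scaled to a common library total). The 8 genes drew 801 to 16980 reads each in any library, so no member is near that limit. Mitochondrial genes took 5.08% to 10.7% of gene counts in aged and 2.63% to 3.23% in young libraries, with the highest share in aged replicate 1. T cell markers were present in every library: 17 genes such as Cd3e and Lck summed to 4753 to 4932 CPM in aged and 4220 to 5388 CPM in young libraries. The 12 Treg markers, with Cd4, Foxp3 and Il2ra among them, summed to 3795 to 4299 CPM in aged and 3095 to 4859 CPM in young libraries. In bulk RNA, fewer cells of a type and less RNA per cell cannot be told apart.

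Gimap transcripts were plentiful in these cells at both ages. To compare genes with each other, CPM were divided by the kilobases of the gene's merged exons. On this scale Gimap3 was the most abundant member in young cells, with 385 ± 50.8 CPM per kilobase (SD, n = 4), and ranked 90 among the 13904 genes tested over all libraries. Gimap3 encodes a GIMAP of the mitochondrial outer membrane. Gimap4, whose protein has been placed on the side of T cell death, followed with 319 ± 28.1 CPM per kilobase in young cells, and its range overlapped that of Gimap3. Gimap6, whose protein binds the autophagy protein GABARAPL2, had 171 ± 23.7 CPM per kilobase in young cells, below every Gimap4 value. Gimap8, which carries several GTPase domains in a row, had 84.3 ± 3.43 and Gimap9 had 71.8 ± 10.8 CPM per kilobase in young cells, and these ranges overlapped. Gimap1, which mature T and B cells need to persist, had 42.0 ± 5.47 and Gimap7 had 32.9 ± 4.66 CPM per kilobase in young cells, again with overlapping ranges. Gimap5 was the lowest with 22.8 ± 3.42 CPM per kilobase in young cells, and still ranked 1950 among all genes tested. Merged exons are longer than the longest annotated transcript, by a factor of 1.90 for Gimap1, 1.83 for Gimap7, 1.78 for Gimap5 and at most 1.20 for the other 5 members, which lowers the values per kilobase of these 3 genes most. Per kilobase of the longest transcript, a scale added after the data were seen, the order in young cells was the same.

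The order of means in aged cells differed at 1 place, which depended on the length used. Gimap7 stood at 55.7 ± 8.09 CPM per kilobase (SD, n = 3), above Gimap1 at 41.8 ± 10.99, although the ranges of these neighbours overlapped. Gimap5, the lowest in aged cells at 27.4 ± 4.27 CPM per kilobase, reached into the range of Gimap1. The other neighbours of the order did not overlap in aged cells, from Gimap3 at 558 ± 109.5 CPM per kilobase down to Gimap7. Per kilobase of the longest transcript, aged Gimap7 had 102 ± 14.8 CPM and stood above Gimap9 with 84.0 ± 12.5 CPM, with overlapping ranges. Per kilobase of exon bases that no other annotated gene overlaps, also added after the data were seen, aged Gimap1 had 65.3 ± 17.2 and aged Gimap7 57.7 ± 8.38 CPM, and the order in aged cells was that of young cells.

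Aged and young libraries were then compared with edgeR's quasi-likelihood test across all 13904 genes, with Benjamini-Hochberg adjustment over all of them and a call at an adjusted p under 0.05. Of the 8 members, 1 rose in aged cells, none fell and 7 were not called. Over all genes tested, 9.8% were called higher and 6.94% lower in aged cells. The 1 of 8 (12.5%) called higher is close to this background, so the count says little about the family as such. The members' log2 fold changes ran from -0.02 to 0.76, with 6 above 0 and 2 below. Their median was 0.25, beside 0.02 over all genes tested, of which 52% had a value above 0. Unadjusted p-values were under 0.05 for 2 members, both higher in aged cells, as for 17.6% of all genes.

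**Figure D1:**
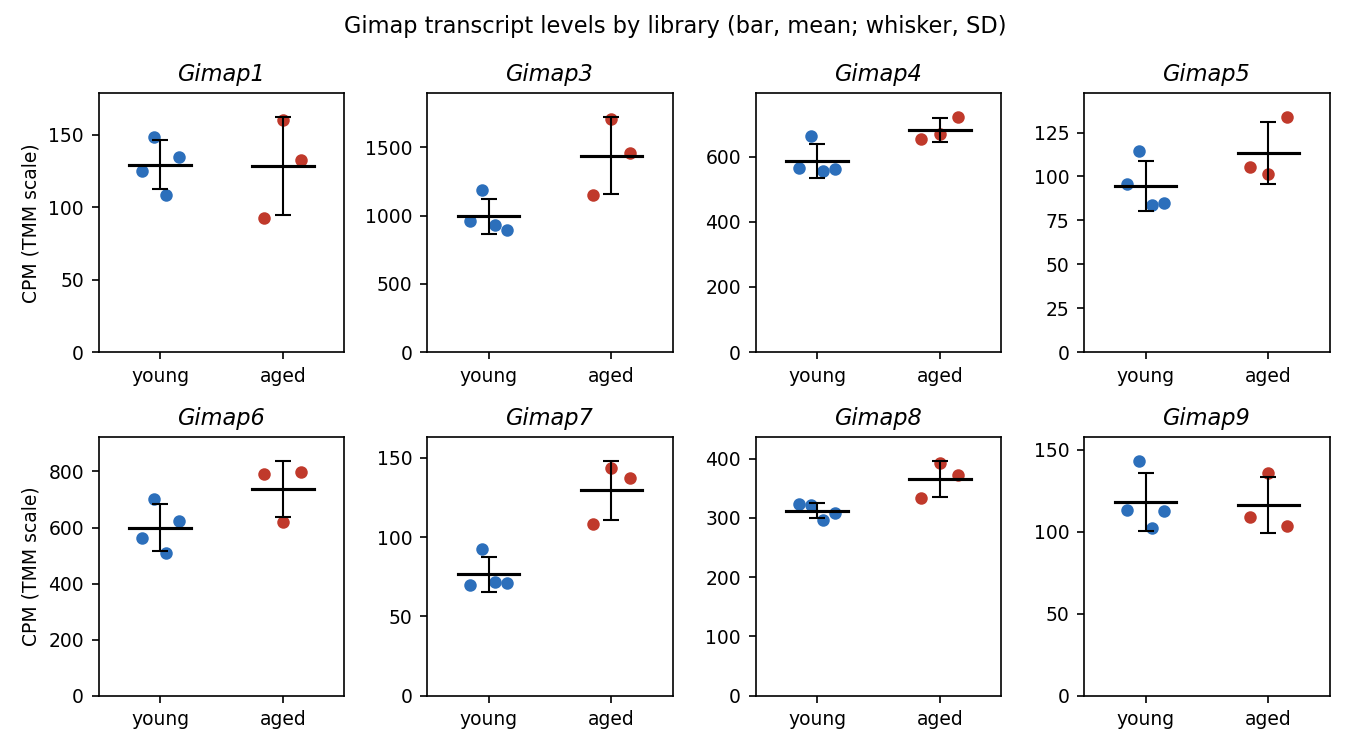
Level of each Gimap gene in the 7 libraries, as CPM on the edgeR TMM scale on an axis from 0 for each gene, with young libraries on the left and aged on the right. Points are libraries, bars are group means and whiskers are SD (n = 4 young, n = 3 aged). The aged points of Gimap7 (108 to 143 CPM) lie above the young ones (70.0 to 92.6 CPM), and those of Gimap1 and Gimap9 mix with the young ones.

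Gimap7 was the member that rose. Its protein pairs with other GIMAP proteins and speeds up their GTP hydrolysis. The 3 aged replicates, in order, measured 108, 143 and 137 CPM, and the 4 young ones 70.0, 92.6, 71.9 and 71.2 CPM. Every aged library lay above every young library, as for 15.5% of all genes tested, and young replicate 2 stood above the other 3 young libraries. The aged mean was 129.5 CPM with an SD of 18.8 (n = 3), the young mean 76.4 CPM with an SD of 10.8 (n = 4). The log2 fold change was 0.76, with a standard error of 0.14 and a 95% interval of 0.44 to 1.08. The adjusted p of edgeR's test was 0.00955, and the fold was 1.69. The raw counts behind these values were 1237 to 1465 in aged and 801 to 1322 in young libraries.

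Gimap3 had the next largest difference and was not called. Its aged replicates, in order, held 1147, 1710 and 1460 CPM, its young ones 962, 1185, 928 and 897 CPM. Aged replicate 1 lay below young replicate 2, so the groups overlapped by that pair, whereas the other aged libraries lay above all young ones. The log2 fold change was 0.53 (standard error 0.171, 95% interval 0.14 to 0.93), with an unadjusted p of 0.0131 and an adjusted p of 0.0656 by edgeR's test. The call depended on the setting: it passed in 4 of 18 alternatives, with log2 fold changes between 0.39 and 0.67 and adjusted p between 0.0145 and 0.182 over all of them. Without aged replicate 1 it was 0.67 (adjusted p = 0.0238), and without young replicate 2 it was 0.63 (adjusted p = 0.0386).

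Gimap8 also had groups that did not overlap, at 333, 393 and 373 CPM in aged and 323, 322, 296 and 308 CPM in young libraries. The gap between the lowest aged and the highest young library was small beside the spread of the aged group. Its log2 fold change of 0.23 (standard error 0.102, 95% interval -0.00 to 0.46) was not called (adjusted p = 0.155). With Gimap7 it made 2 of 8 members whose groups did not overlap, beside 29.9% of all genes tested in either direction.

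Gimap4, Gimap5 and Gimap6 overlapped between the ages and were not called. Gimap4 measured 653, 670 and 722 CPM in aged and 566, 664, 555 and 562 CPM in young libraries. Its young replicate 2 reached into the aged range, and the log2 fold change was 0.22 (95% interval -0.05 to 0.48, adjusted p = 0.231). It was 0.11 with the GC and length trend removed. Gimap5, whose product keeps naive T cells alive and acts at the lysosome, measured 106, 101 and 134 CPM in aged and 95.4, 114, 83.8 and 85.0 CPM in young libraries. Its log2 fold change was 0.26 (95% interval -0.07 to 0.59, adjusted p = 0.251), with only aged replicate 3 above all young libraries. Leaving that library out gave 0.13. Gimap6 measured 793, 621 and 799.8 CPM in aged and 562, 703, 510.3 and 622 CPM in young libraries. Aged replicate 2 lay within the young range, and the log2 fold change was 0.30 (95% interval -0.05 to 0.65, adjusted p = 0.212).

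Gimap1 and Gimap9 had values near 0 in the same fit. Gimap1 measured 92.6, 160 and 133 CPM in aged and 125, 149, 109 and 134 CPM in young libraries. The aged libraries held both its lowest and its highest value. The mean ± SD was 128 ± 33.8 CPM in aged (n = 3) against 129 ± 16.8 CPM in young libraries (n = 4), for a log2 fold change of -0.01 (95% interval -0.43 to 0.41, adjusted p = 0.979). Gimap9 measured 109, 136 and 104 CPM in aged and 113, 143, 102 and 113 CPM in young libraries. The aged range lay within the young range, with a log2 fold change of -0.02 (95% interval -0.35 to 0.31, adjusted p = 0.939). The sign of both genes turned in some settings given in the closing section.

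**Figure D2:**
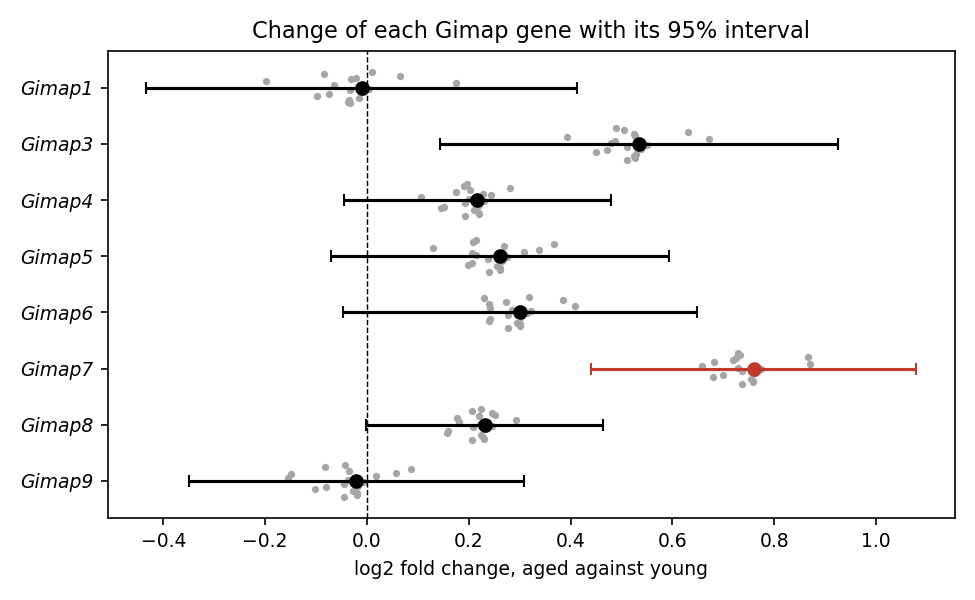
Log2 fold change of each Gimap gene, aged against young, with its 95% interval from edgeR's quasi-likelihood test. Small grey points are the 18 alternative settings. The interval of Gimap7 (0.44 to 1.08) and that of Gimap3 (0.14 to 0.93) lie above 0, and the other 6 hold 0.

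The family as a whole was described by its summed level. The 8 genes together reached 1286, 1533 and 1486 CPM per kilobase in the aged replicates, in order, against 1092, 1312, 1037 and 1078 in the young ones. Young replicate 2 lay above aged replicate 1, so the groups overlapped. The means were 1435 ± 131 (SD, n = 3) and 1130 ± 124 (SD, n = 4), a ratio of 1.27. In reads, the 8 genes held 0.347% to 0.384% of gene counts in aged and 0.266% to 0.353% in young libraries. Gimap3 and Gimap4 supplied most of the summed level at both ages.

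The make-up of the family does not depend on how libraries are scaled to each other, since it compares the 8 genes within a library. Gimap7 made up 3.62%, 4.02% and 3.97% of the summed CPM per kilobase in the aged replicates, in order, against 2.76%, 3.04%, 2.98% and 2.84% in the young ones. All aged shares lay above all young ones, with means of 3.87 ± 0.22% (SD, n = 3) and 2.90 ± 0.128% (SD, n = 4). Gimap9 made up 5.17%, 5.40% and 4.25% in aged and 6.32%, 6.66%, 6.02% and 6.36% in young libraries. Here all aged shares lay below all young ones, a difference of -1.40 percentage points. The share of Gimap1 likewise did not overlap, with 2.88 ± 0.524% in aged and 3.72 ± 0.266% in young libraries, a difference of -0.84 percentage points. For these 3 shares a two-sided exact permutation test gave p = 0.0571, the smallest that 3 against 4 libraries can give, so none can pass 0.05. The shares of a whole are tied to each other, so a higher share of Gimap7 or Gimap3 lowers the rest.

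On the scale per kilobase, the shares of the other 5 members overlapped between the ages. As shares of plain CPM, without division by length, those of Gimap4 did not overlap either (exact permutation p = 0.0571). Gimap3 made up 38.7 ± 4.37% in aged and 34.1 ± 1.24% in young libraries, a difference of 4.61 percentage points (exact permutation p = 0.171). That difference was 2.30 percentage points without aged replicate 2. Gimap4 made up 26.0 ± 1.97% and 28.3 ± 0.659%, and Gimap6 made up 14.9 ± 3.06% and 15.2 ± 1.03%, in aged and young libraries. Gimap8 and Gimap5 differed by -0.61 and -0.10 percentage points.

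**Figure D3:**
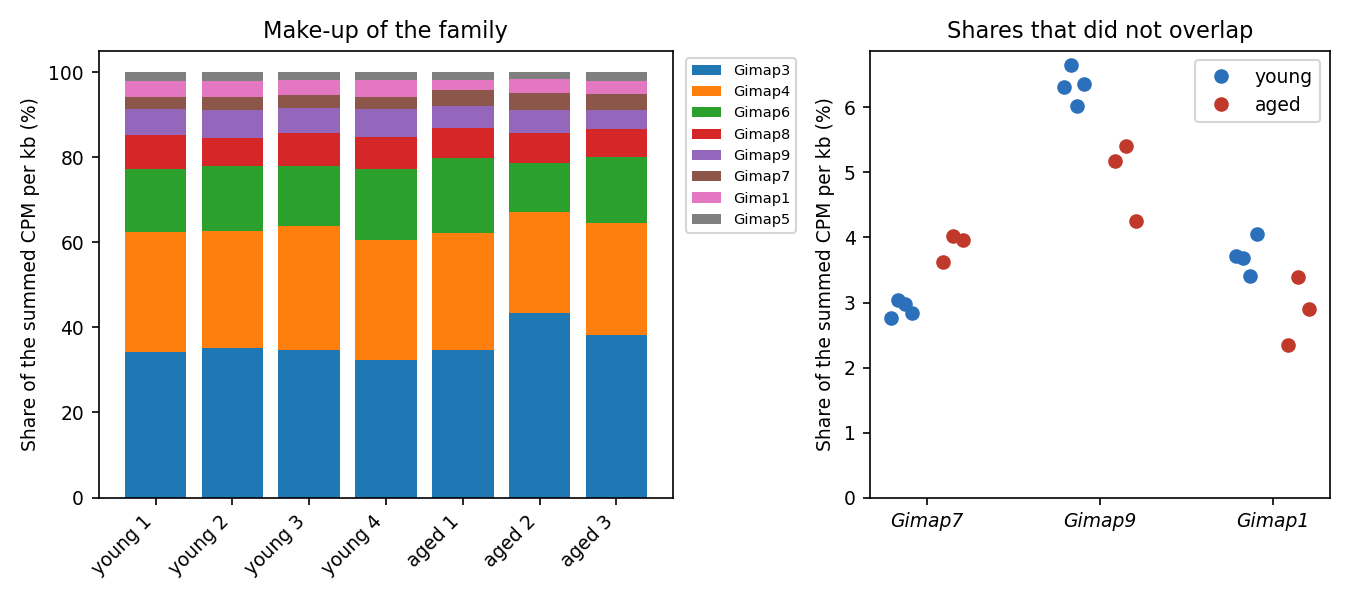
Share of each Gimap gene in the summed CPM per kilobase of the 8 genes, in percent. The left panel stacks the shares of the 7 libraries, and the right panel plots each library for Gimap7, Gimap9 and Gimap1 on an axis from 0. Gimap7 has aged points of 3.62% to 4.02% above young points of 2.76% to 3.04%, and for the other 2 genes the aged points lie below the young ones.

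Ratios between members, taken as log2 ratios of CPM, compare the genes pair by pair. A share is set against the summed level, so its overlap can differ from that of a gene's pairs. Of the 28 pairs, the log2 ratio did not overlap between the ages in 8. Gimap7 was in 6 of these 8 pairs, all its pairs but that with Gimap6, and the remaining 2 were Gimap3 with Gimap1 and Gimap3 with Gimap9. Pairs with a gene in common reuse its values, so these counts are not independent. Pairs of other genes were not examined. Of all single genes tested, 29.9% did not overlap in either direction. The log2 ratio of Gimap7 to Gimap9 was 0.15 ± 0.22 in aged (SD, n = 3) and -0.62 ± 0.08 in young libraries (SD, n = 4). The smallest two-sided exact permutation p over the pairs was 0.0571, which is 0.2 after Benjamini-Hochberg adjustment over the 28.

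Overlapping and similar genes touch the values of Gimap1, Gimap3, Gimap5 and Gimap7. The annotation has a readthrough gene, Gm28053, that runs from Gimap7 to Gimap5, and an antisense gene, Gimap1os. Counting without strand, which is taken to apply here, leaves reads on shared bases unassigned. In the GENCODE M21 models this touches 36.02% of the exon bases of Gimap1, 3.69% of those of Gimap5 and 3.48% of those of Gimap7. Gm28053 itself had 36 to 62 counts per library, with 4.80 ± 0.708 CPM in aged and 3.37 ± 0.254 CPM in young libraries (log2 fold change 0.51, adjusted p = 0.107). Gimap1os had 102 to 169 counts per library and a log2 fold change of 0.40 (adjusted p = 0.19). Of the stretches of 50 bases in the exons of Gimap3, 8.15% also occur in other genes, Gimap5 among them, and 4.53% of those of Gimap5 occur in Gimap3. Reads from such stretches could fall to either gene or to none, so the values of Gimap3 and Gimap5 are uncertain to that extent, whereas Gimap7 shares no such stretch with a gene elsewhere.

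The genes around the cluster were tested in the same fit. Within 500 kb, 33 further annotated genes had a count and 20 were tested, 16 of them outside the cluster, with a median log2 fold change of 0.44 beside 0.02 over all genes tested. Of these, 3 of 20 were higher in aged cells and 1 was lower, beside 9.8% and 6.94% of all genes. Igf2bp3, which encodes an RNA-binding protein of fetal tissues, stood at 9.09 ± 0.783 CPM in young cells and at 1.22 ± 0.577 CPM in aged ones, a log2 fold change of -2.87 (adjusted p = 0.00124). Krba1 rose from 59.4 to 79.4 CPM (log2 fold change 0.42, adjusted p = 0.035), Sspo from 8.68 to 15.3 CPM (0.82, adjusted p = 0.013) and AI854703 from 3.37 to 6.34 CPM (0.91, adjusted p = 0.021).

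**Figure D4:**
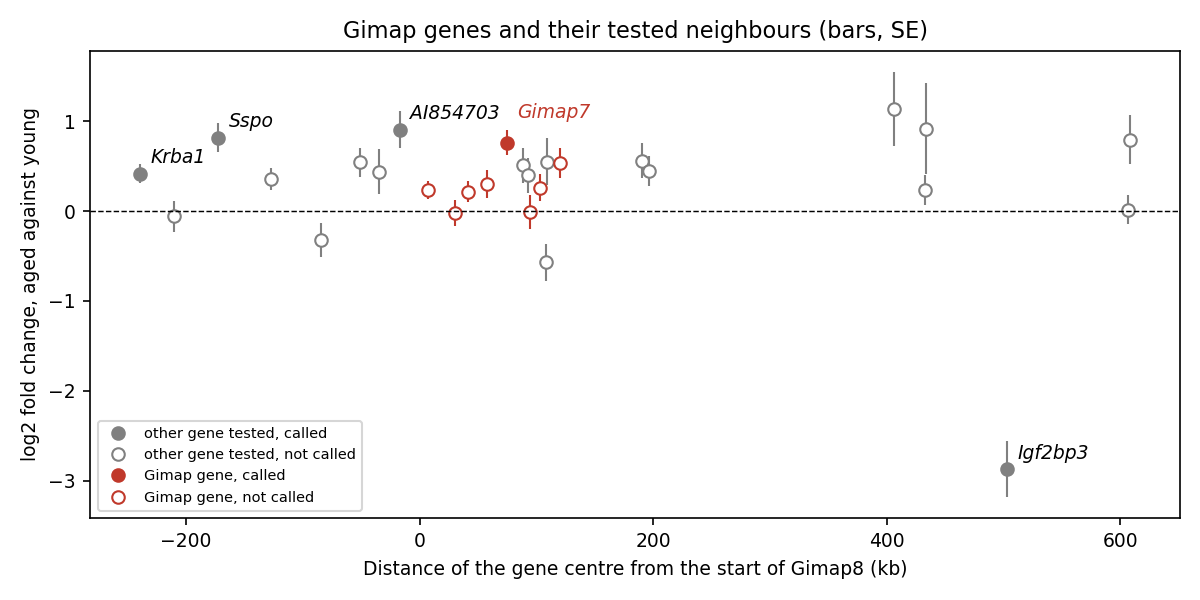
Log2 fold change of the 8 Gimap genes and of the 20 tested genes within 500 kb against the distance of the gene's centre from the start of Gimap8, in kilobases. Bars are standard errors, filled points were called by edgeR's test and open points were not. Gimap7 at 0.76 is the filled point within the family, and Igf2bp3 at -2.87 is the lowest point of the region.

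The known partners of the family were read in the same fit. Of 10 genes of the BCL-2 family and other known GIMAP partners, none was called higher and 2 were called lower, beside 9.8% and 6.94% of all genes. Their median log2 fold change was -0.22, with -0.14 without young replicate 2 and -0.32 without aged replicate 2. Bcl2, which protects against mitochondrial cell death, measured 140, 141 and 127 CPM in aged and 209, 231, 189 and 177 CPM in young libraries. All aged libraries lay below all young ones, with a log2 fold change of -0.56 and a standard error of 0.117 (adjusted p = 0.015). Bcl2l11, which encodes the death-promoting BIM, measured 46.6, 38.1 and 38.1 CPM in aged and 79.6, 85.4, 73.2 and 67.2 CPM in young libraries. With a standard error of 0.12, it fell by 0.90 as log2 fold change (adjusted p = 0.00258). Without aged replicate 3, 1 gene of the list was called lower in place of 2, and 3 were with DESeq2 or without aged replicate 1. Mcl1 had a log2 fold change of -0.33 (adjusted p = 0.0894), Bax 0.04 (adjusted p = 0.826) and Gsk3b -0.33 (adjusted p = 0.23), none of them called. Gabarapl2, the partner of GIMAP6, stood at 141 ± 103 CPM in aged against 124 ± 40.5 CPM in young cells (adjusted p = 0.831). Its replicates, in order, held 47.5, 252 and 124 CPM in aged and 167, 70.7, 138 and 119 CPM in young cells, where hemoglobin genes took 1.27%, 13.1% and 7.60% and 10.4%, 1.24%, 6.15% and 5.91% of gene counts. The part of the latter in its spread was not tested.

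Among 7 genes of the receptor axis for the survival cytokines IL-7 and IL-2, 2 were called higher and none lower, beside 9.8% of all genes called higher and 6.94% lower. Their median log2 fold change was -0.11. It was -0.05 with the GC and length trend removed, and -0.18 with library size only and with scaling to the T cell genes. Jak3, the kinase bound to the common gamma chain, measured 252, 240 and 212 CPM in aged and 174, 170, 151 and 176 CPM in young libraries. Every aged library was above every young one, with a log2 fold change of 0.48 (adjusted p = 0.0164). Il2rg, the gamma chain itself, rose from 180 ± 16.5 to 234 ± 19.0 CPM, a log2 fold change of 0.39 (adjusted p = 0.0459). Il7r had a log2 fold change of 0.25 (adjusted p = 0.532), Jak1 of -0.37 (adjusted p = 0.0517) and Il2rb of -0.35 (adjusted p = 0.262), without a call. The higher calls depended on the setting: 0 were left with library size only, with scaling to the T cell genes and without young replicate 3, and 1 with no filter, with the GC and length trend removed, and without aged replicate 2 or 3, or young replicate 1, 2 or 4. In 8 of 18 alternatives, DESeq2 and the limma fits among them, 1 gene of the list was called lower.

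Resting lymphocyte genes were set beside the family because GIMAP genes are known as genes of resting T cells. Of the 16 genes on that list, 12 fell, none rose and 4 were not called, with a median log2 fold change of -0.68, beside 6.94% of all genes called lower. Satb1, a chromatin organiser of T cells, stood at 230.2 ± 15.1 CPM in young cells and at 85.3 ± 18.1 CPM in aged ones. That is a log2 fold change of -1.43 (adjusted p = 0.00114). Bach2 fell by 1.19, Lef1 by 1.13, Ccr7 by 0.77 and S1pr1 by 0.81 on the log2 scale, and Tob1 by 1.80 from a low level. Klf2, Klf3, Foxo1, Foxp1 and Tcf7 were also called. Il7r, Btg1, Btg2 and Slfn2 were not called, with log2 fold changes of 0.25, 0.11, -0.14 and -0.17. No Gimap gene was among the genes called lower, in the reported fit or in any of the 19 alternatives. The difference between the lists was not tested.

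A list of 18 lymphocyte transcription factors holds factors of the forkhead, RBPJ, Runx and Ets motif families searched in the promoters. Of these 18 genes 1 rose and 7 fell, with a median of -0.35, beside 9.8% of all genes called higher and 6.94% lower. Runx2 rose from 18.1 ± 2.21 to 39.2 ± 9.09 CPM, a log2 fold change of 1.12 (adjusted p = 0.00496), while Runx1 had 0.00 (adjusted p = 0.996) and Runx3 0.28 (adjusted p = 0.127). Klf2, a factor of quiescent T cells, fell by 1.15 and Foxo1 by 0.55 on the log2 scale. Foxp1 fell by 0.58, Ets1 by 0.57, Notch2 by 0.55, Ikzf1 by 0.54 and Cbfb by 0.36. Klf2, Foxo1 and Foxp1 stand on this list and on the resting list, so the counts are not independent. The 7 lower calls rest on the libraries used: none is called without aged replicate 3, 3 each without aged replicate 2 or young replicate 4, and 2 each without young replicate 1 or young replicate 3. For the resting list, 7 genes were called lower without aged replicate 3.

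**Figure D5:**
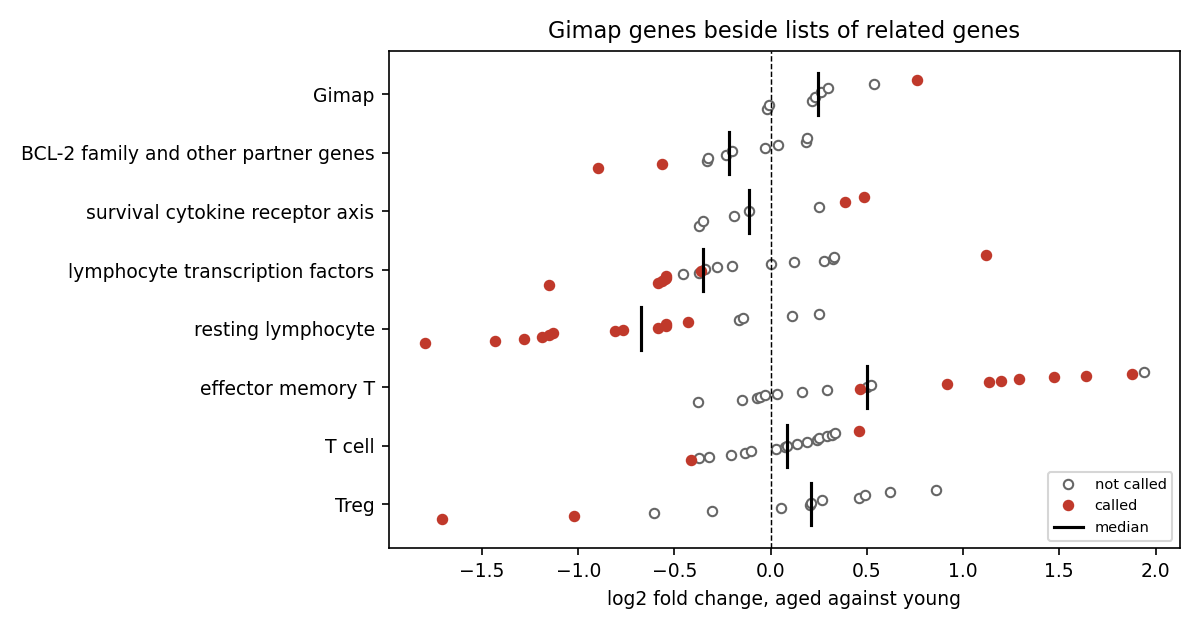
Log2 fold changes, aged against young, of the Gimap genes and of the lists of related genes, with 1 point per gene. Filled points were called at an adjusted p under 0.05 by edgeR's test, open points were not, and black bars are medians. The resting lymphocyte genes centre at -0.68 and the Gimap genes at 0.25.

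Of 19 effector memory genes, listed as marks of T cells that have met antigen, 8 rose, none fell and 11 were not called. This stands beside 9.8% of all genes called higher and 6.94% lower. The list's median was 0.50, and 0.31 without aged replicate 1. Cxcr3, a chemokine receptor of such cells, went from 34.6 ± 8.84 to 108 ± 5.77 CPM, a log2 fold change of 1.64 (adjusted p = 0.00125). S100a6 rose by 1.14, S100a11 by 0.92 and Prdm1, which encodes BLIMP-1, by 1.20 on the log2 scale. S100a4, Anxa1 and Anxa2 were also called, and Anxa1 overlapped between the groups. The count of higher calls was 3 without young replicate 4, 4 without aged replicate 3, young replicate 1 or young replicate 3, and 5 without aged replicate 1, with library size only or with scaling to the T cell genes. Without aged replicate 1 the median of the neutrophil genes, described next, also went from 2.03 to 0.83. The part of neutrophils and other spleen cells in the effector memory values was not tested.

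Markers of T cells and of other cells were read in the same fit, and their part in the Gimap results was not tested. The counts below stand beside 9.8% of all genes called higher and 6.94% lower in the reported fit. Of the 17 T cell genes 1 rose (Cd3e, log2 fold change 0.46, adjusted p = 0.0301) and 1 fell (Cd5, -0.42, adjusted p = 0.0422), with a median of 0.08. That median was 0.20 without young replicate 2, 0.03 without young replicate 4 and 0.01 with library size only. Without aged replicate 1, 2 of these genes were called lower, and without young replicate 2 none was called lower. No T cell gene was called with library size only or no filter, or without aged replicate 2 or 3, or young replicate 1, 3 or 4. Scaled to the T cell genes in place of all genes, Gimap7 had a log2 fold change of 0.70 (adjusted p = 0.0081). Of the 12 Treg genes 2 fell (Lrrc32 by 1.02 and Gpr83 by 1.71 on the log2 scale) and none rose. The median over the list was 0.21, and 0.12 without aged replicate 1. The count of higher ones was 3 without young replicate 2, and that of lower ones was 4 with DESeq2 and with scaling to the T cell genes. Of the 10 neutrophil genes 4 rose, and their sum was 682 to 5323 CPM in aged and 309 to 994 CPM in young libraries. That count was 2 without aged replicate 1 (where the median went from 2.03 to 0.83), 7 with no filter or without aged replicate 3, and 1 without young replicate 1 or 4. B cells also carry Gimap transcripts: of 10 B cell genes none was called by edgeR's test, with a median of -0.45 (-0.18 without aged replicate 1, -0.73 without aged replicate 3), and their sum was 1027 to 1875 CPM in aged and 1488 to 2323 CPM in young libraries. With DESeq2 or without aged replicate 3, 3 B cell genes were called lower. Of 6 plasma cell genes none was called (702 to 1260 and 309 to 1977 CPM), against 4 called higher without young replicate 2. Of 12 monocyte or macrophage genes 3 fell (429 to 584 and 536 to 633 CPM). Of 8 dendritic cell genes 1 rose and 3 fell (45.4 to 66.7 and 63.1 to 82.7 CPM), and of 5 NK cell genes 1 fell (17.4 to 27.7 and 28.3 to 39.4 CPM). The NK cell count was 0 without aged replicate 3, young replicate 3 or young replicate 4, and 2 without young replicate 2. No dendritic cell gene was called higher without aged replicate 3. The 2 CD8 T cell genes were not called (45.4 to 82.0 and 48.8 to 92.7 CPM), nor were the 8 erythroid genes, which summed to 13243 to 161051 and 12626 to 119949 CPM. Of 5 tested platelet genes 1 rose and 1 fell (54.7 to 67.7 and 62.6 to 78.2 CPM), and the count of higher ones was 0 without aged replicate 3, young replicate 1 or young replicate 3, and 2 without aged replicate 1. Of 5 tested endothelial genes 1 fell (112 to 130.4 and 170.1 to 195 CPM), and 1 rose besides without aged replicate 1 or 2. Emcn was at or under 3 counts in every library.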

How the data were processed

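RNA of CD4+CD25+ splenocytes was sequenced by the authors from SMART-Seq cDNA without molecular identifiers, in 3 aged and 4 young mouse libraries. The authors deposited raw read counts per Ensembl gene, in the layout of HTSeq. Union mode without strand was taken as the counting mode and was not tested. Per the labels' processing notes the build is mm10, and the aligner and annotation release are not given in the sources used here. The deposited series table holds signal values, each a count divided by the library's size factor (0.849 to 1.21). It also holds the authors' comparison, a log2 fold change with its standard error, a p-value, an adjusted p-value and a deposited test score, none of which was used. Reads not assigned to a single gene (13.1% to 20.9%) stayed out of library sizes.

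Counts were tested with edgeR 4.0.16 in R 4.3.3 (TMM, filterByExpr, quasi-likelihood test, Benjamini-Hochberg over 13904 genes). Standard errors are the log2 fold change over the square root of F, and CPM are on the TMM scale. Alternatives used DESeq2 1.42.0, limma 3.58.1, other scalings and filters, a GC and length trend (values for 99.7% of genes), a replicate block and each library left out. On simulated counts of 13663 genes, the step recovered 55 of 104 genes changed by a log2 of 1 and 80 of 96 changed by a log2 of 2, with 9 false calls among 13663. As a check for a library deposited again under another name, counts were compared within groups, and no pair agreed within sampling noise (chi-square per degree of freedom 8.88 to 185). The labels call them biological replicates without naming the animals, so p-values measure the spread between these libraries.

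The members and lists were chosen with earlier results of these data known. Named genes are the 8 members, the called genes and up to 4 others of each related list, annotated genes within 500 kb of the cluster, and the 5 genes with the most similar profile. Some listed genes are counted but not reported by name here. Symbols are those of the deposited table, and coordinates are GENCODE M21 (GRCm38), matched by identifier. Floors cover counting error only.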

Additional observations from a re-analysis of the deposited data

Results flagged for a closer look

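Young replicate 2 stood apart from the other young libraries for 2 members, among 16 sets of young values examined (CPM and share for each of the 8 genes). The aged groups of 3 were not examined in this way. For Gimap7 it measured 92.6 CPM against 70.0 to 71.9 CPM in the other 3, and the gap was 0.918 of the group's range. For Gimap4 it measured 664 CPM against 555 to 566 CPM, a gap of 0.900 of the range. Chance alone marks about 1 group in 20 in this way. Young replicate 2 held the highest young CPM of every member but Gimap8. It also had the largest gene count of the 7 libraries, 13649310, and the lowest hemoglobin share, 1.24%. Its share of gene counts on the T cell genes was the highest, 0.563% against 0.423% to 0.498% in the other libraries. The part of these library traits in the Gimap values was not tested. Without this library the log2 fold change of Gimap7 was 0.87 (adjusted p = 0.00516 by edgeR), and that of Gimap4 was not called.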

How the results depend on the processing

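Over 18 alternatives Gimap7 kept its direction, with log2 fold changes of 0.66 to 0.87, and was called in 17. The replicate block gave 0.73 with an adjusted p of 0.0574. Same-numbered libraries did not deviate together (correlations -0.29 to -0.09), so no pairing by number was seen. Deviations from the mean of only 3 or 4 libraries cannot decide whether a number marks a shared preparation. In the block fit young replicate 4 has no partner. The block left 0 members called higher and 292 calls over all genes against 2327. It left 5 resting lymphocyte genes against 12, 3 effector memory genes against 8 and 0 cytokine axis genes against 2. Of the transcription factors, 0 were called lower against 7 and 0 higher against 1. It left 0 T cell genes against 2, 1 neutrophil gene against 4 and 1 BCL-2 or partner gene against 2. Lower calls were 1 Treg gene against 2, 1 monocyte or macrophage gene against 3 and 0 dendritic cell genes against 3. For NK cell and endothelial genes they were 0, against 1 each. Higher calls were 0 for dendritic cell and platelet genes, against 1 each. The block moved the higher share of calls from 58.5% to 69.2%. Members called higher numbered 2 with DESeq2 and 2 with the GC and length trend removed, adding Gimap3 at 0.51 and 0.49, and 0 when calls also needed a log2 change of 1 either way, where 1016 genes were left in all. No member was called lower in any alternative, and at least 6 of 8 lay above 0. With library size only, 4 transcription factors were called lower. With the GC and length trend removed, Gimap4 was 0.11 and Gimap9 -0.16. As shares of CPM without division by length, the differences of Gimap9, Gimap8 and Gimap4 were -0.91, -0.92 and -1.78 percentage points. Gimap1 turned to 0.0046 with at least 10 counts in every library. Leaving out each library gave 1 to 2 members called higher, 1237 to 3058 calls over all genes, 7 to 12 resting lymphocyte genes and 0 to 10 transcription factors called lower. In those fits Gimap1 ran from -0.20 to 0.17, Gimap9 from -0.149 to 0.0873, Gimap3 from 0.39 to 0.67, Gimap5 from 0.13 to 0.37, the share difference of Gimap3 from 2.30 to 6.64, that of Gimap4 from -3.20 to -1.27, the share difference of Gimap5 from -0.229 to 0.060 and that of Gimap6 from -1.67 to 1.36 percentage points. Without aged replicate 3 there were 1262 calls over all genes, without young replicates 1, 3 and 4 there were 1315, 1270 and 1237. The causes were not tested. The alternatives for the counts of the resting lymphocyte and transcription factor lists, and the lengths other than merged exons, were added after seeing the data. With the longest transcript the shares of Gimap7, Gimap9 and Gimap1 still did not overlap between the ages, and their differences were 1.46, -1.42 and -1.37 percentage points. The members had at least 801 counts in every library, and their intervals rest on 3 against 4 libraries. What limits the intervals was not tested.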

Other observations

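The genes whose levels over the 7 libraries were most like the mean profile of the members were sought among 9418 genes of sufficient level, by the root mean square difference of centred log2 CPM. They were Asb3 (0.035), Alg12 (0.040), Capg (0.044), Fam169b (0.048) and Tonsl (0.049). Their log2 fold changes were 0.27, 0.24, 0.21, 0.25 and 0.31, and none was called. Points of this measure share libraries and depth, so it is a description only.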
